A study of Mus musculus with 8 samples.

Results

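The genes described here are 37 markers of the kidney glomerulus and the renal vasculature, 18 of podocytes and 19 of endothelial cells, out of the 55401 genes quantified. They were taken by name from lists of cell type markers and matched by gene symbol in GENCODE M21, and the rule that names them uses no expression value. All 37 were found and all 37 passed the filter on low counts. RNA-Seq was performed on whole kidneys of 8 mice, 4 controls and 4 SIK mutants, to see which renal transcripts depend on the salt-inducible kinases (SIKs). Per the labels, the controls carried the genotype SIK1f/f;SIK2f/f,SIK3f/f, that is, loxP-flanked alleles without Cre, and the mutants carried Six2-Cre in addition to the same alleles. The study's text instead describes surviving mutants with 1 floxed and 1 wild-type *Sik1* allele, since no mice with all 3 genes deleted survived, so the group is called SIK mutant here. Controls were Cre-negative littermates, and the labels give no age, sex or batch.

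Podocytes are the epithelial cells that wrap the glomerular capillaries with interlocking foot processes, joined by the slit diaphragm, a filtration junction built from nephrin and its partners. The endothelial cells beneath them are fenestrated and depend on VEGF-A that podocytes secrete, while other renal endothelium lines arteries, veins and the capillaries around the tubules. Six2-Cre recombines in nephron progenitors, from which podocytes, parietal cells and tubule epithelium descend, and endothelium comes from a different lineage. Podocytes therefore belong to the cells in which SIK genes were targeted and endothelial cells do not.

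Of the 3 targeted transcripts, *Sik3* was the one whose groups were separated with lower values in mutants. In CPM, counts relative to the library size with TMM factors, *Sik3* lay at 58.6 to 66.5 in controls and 33.7 to 43.1 in mutants with no overlap. The edgeR log2 fold change was −0.67 for *Sik3* (SE 0.09, FDR = 0.0697), −0.44 for *Sik2* (SE 0.21, FDR = 0.794) and 0.31 for *Sik1* (SE 0.09, FDR = 0.601). *Six2* itself was listed at 0 TPM in 7 kidneys and at 0.13 TPM in mutant 2, so the driver's expression could not be followed in these kidneys. Depth was even, with 10179648 to 10925100 expected counts per kidney, at which 3 counts correspond to 0.263 to 0.304 CPM. Control 3 and control 4 stood apart from the other 6 kidneys on the first principal component, which held 37.1% of the variance. The same pair carried the transcript *Xist*, at 32.6 and 37.4 TPM, and at most 1 count of each of 4 Y-linked genes, whereas control 1, control 2 and the 4 mutants carried at least 111 counts of each and at most 0.03 TPM of *Xist*. These 6 are called the kidneys with Y-linked reads. Genotype and these transcripts were therefore partly confounded, and genotype differences over all 8 kidneys are followed by those of the marker lists over the 6 with Y-linked reads. The 2 pairs of controls were formed from these transcripts and are not groups of the study.

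The promoters of 5 markers are shown, as examples from both lists. They hold the motif marked below more often than the lists do, whose shares follow the sequences. All 5 genes were higher in CPM in controls 3 and 4 than in controls 1 and 2, as were 32 of the 37 markers. Whether the motif bears on these levels was not tested. *Nphs1* and *Kirrel* encode slit diaphragm proteins, *Tek* the angiopoietin receptor, *Emcn* a sialoglycoprotein of capillary endothelium, and *Egfl7* an endothelial secreted protein. Each line gives the 250 bases before 1 RefSeq transcription start, read 5′ to 3′ on the strand of the gene, on GRCm38.p6. Capitals mark the letters CAGGAAG or their reverse complement, a core recognised by ETS transcription factors. In GENCODE M21 the genes other than *Tek* start upstream of these RefSeq starts. The stretches of *Nphs1* and *Egfl7* lie wholly inside the gene as annotated there, and those of *Kirrel* and *Emcn* partly.
Nphs1, chr7:30459808-30460057, plus strand: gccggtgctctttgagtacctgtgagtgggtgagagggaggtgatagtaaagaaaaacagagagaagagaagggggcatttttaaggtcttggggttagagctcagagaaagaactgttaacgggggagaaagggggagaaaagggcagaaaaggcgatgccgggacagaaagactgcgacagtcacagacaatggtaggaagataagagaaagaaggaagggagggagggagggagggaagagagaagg
Kirrel, chr3:87174538-87174787, minus strand: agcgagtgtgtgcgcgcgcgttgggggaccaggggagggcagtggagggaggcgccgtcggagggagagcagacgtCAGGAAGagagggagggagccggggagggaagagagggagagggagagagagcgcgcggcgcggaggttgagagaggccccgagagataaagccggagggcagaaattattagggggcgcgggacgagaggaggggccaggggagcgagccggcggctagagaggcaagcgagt
Tek, chr4:94739039-94739288, plus strand: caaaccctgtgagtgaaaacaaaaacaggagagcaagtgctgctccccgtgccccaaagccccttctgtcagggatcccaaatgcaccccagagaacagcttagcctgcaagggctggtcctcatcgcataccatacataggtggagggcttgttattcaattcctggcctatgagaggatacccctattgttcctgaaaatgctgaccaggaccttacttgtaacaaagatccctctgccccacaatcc
Emcn, chr3:137340828-137341077, plus strand: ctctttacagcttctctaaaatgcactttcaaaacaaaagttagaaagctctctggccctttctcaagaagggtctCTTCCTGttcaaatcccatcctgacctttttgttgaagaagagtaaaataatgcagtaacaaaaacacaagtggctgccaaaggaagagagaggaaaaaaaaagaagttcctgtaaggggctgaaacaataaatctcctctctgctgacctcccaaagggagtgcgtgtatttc
Egfl7, chr2:26583615-26583864, plus strand: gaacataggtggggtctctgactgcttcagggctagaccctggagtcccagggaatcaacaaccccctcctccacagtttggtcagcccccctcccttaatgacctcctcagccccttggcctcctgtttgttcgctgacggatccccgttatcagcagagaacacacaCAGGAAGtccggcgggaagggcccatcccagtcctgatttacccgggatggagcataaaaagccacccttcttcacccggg
The RefSeq table held 32 promoters of 24 of the 37 markers. Searched on both strands, CAGGAAG occurred in 4 of 14 endothelial promoters (28.6%) and in 1 of 18 podocyte promoters (5.56%), against 10.8% of all 32851 promoters of the same length. The E-box CAGCTG, a site of factors such as that encoded by *Tcf21*, occurred in 4 of 18 podocyte promoters (22.2%) and 1 of 14 endothelial promoters (7.14%), against 13.0% of all. The letters GCGGGGGCG, a site of WT1, occurred in 0 of the podocyte and 1 of the endothelial promoters, against 2.57% of all. No match of one of these motifs overlapped a match of another, and some genes contributed more than 1 promoter. The endothelial promoters with CAGGAAG belonged to *Emcn*, *Erg* and *Egfl7*, the last with more than 1 of them. Other promoters of *Erg* and *Egfl7* lacked it.

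Podocyte transcripts were present in every kidney at levels that spanned more than 2 orders of magnitude. TPM, which accounts for gene length, is used for levels between genes. *Vegfa*, the secreted endothelial growth factor, led the podocyte list with a mean of 85.3 TPM over the 8 kidneys and made up 42.4% of its sum, although tubule cells also make it. It was followed by *Podxl* at 23.8 TPM, the sialomucin that coats foot processes, and by the transcription factor gene *Tcf21* at 20.4 TPM. *Cd2ap*, an adaptor that ties nephrin to the cytoskeleton, was at 19.2 TPM and is expressed outside podocytes as well. *Synpo*, an actin organiser of foot processes, had a mean of 10.98 TPM and *Cdkn1c*, a cell cycle inhibitor, 10.7 TPM. The nephrin gene *Nphs1* was at 5.05 TPM, *Wt1*, the master transcription factor of podocytes, at 2.24 TPM, and the lowest were the phospholipase gene *Plce1* at 0.594 and *Thsd7a*, an autoantigen of membranous nephropathy, at 0.499 TPM. On the endothelial list *Plvap*, which forms the diaphragms of fenestrae and caveolae, led with 124 TPM and 32.3% of the sum. *Egfl7* at 53.9 TPM, *Emcn* at 49.0 TPM and the TGF-β co-receptor gene *Eng* at 47.9 TPM came next, and *Vwf*, which marks endothelium of larger vessels, was lowest at 1.36 TPM. The defining markers *Nphs1*, *Podxl*, *Synpo* and *Wt1* for podocytes and *Pecam1*, *Cdh5*, *Kdr* and *Tek* for endothelium were thus detected in every kidney.

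**Figure D1:**
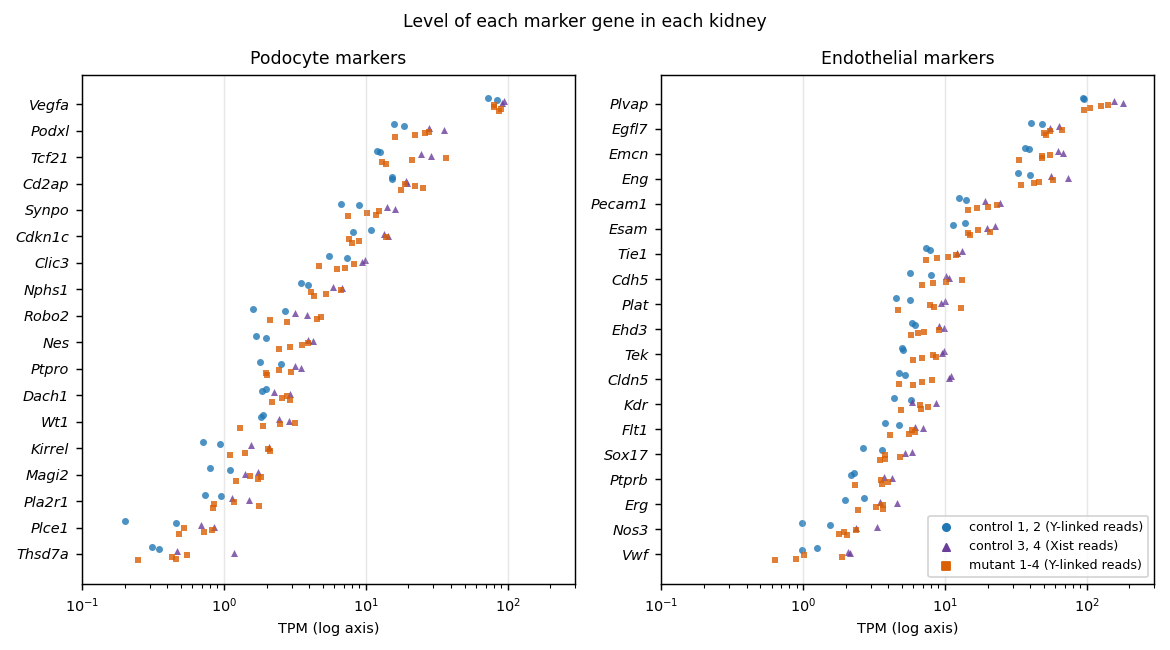
TPM (log axis) of the 18 podocyte markers and the 19 endothelial markers, ordered by mean level, with a symbol for each kidney: circles for controls 1 and 2, triangles for controls 3 and 4, squares for the 4 mutants. Triangles lie to the right of circles for all 37 genes, and the squares spread between and around them.

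Neither podocyte nor endothelial markers differed between genotypes beyond the spread between kidneys. None of the 37 had an FDR under 0.05 by edgeR, as was the case for every one of the 14326 genes tested (0.0%), and DESeq2, which called 71 genes or 0.387% of 18344, called none of the 37 either. At an unadjusted edgeR p under 0.05, 0 of the 37 were called, against 911 genes or 6.36% of all those tested (2.76% higher in mutants and 3.59% lower). For 0 markers did all mutants lie above all controls in CPM and for 0 did all lie below, against 1.65% and 2.39% of all genes. The median log2 fold change was −0.08 over the podocyte markers and −0.11 over the endothelial markers, beside −0.0038 over all genes tested. The fold change was above 0 for 8 of 18 podocyte and 4 of 19 endothelial markers, together 12 of 37 or 32.4%, against 49.2% of all genes. The endothelial count includes *Vwf*, whose direction was the opposite in TPM, as given below. Over all 8 kidneys, the 95% intervals of 35 of the 37 log2 fold changes lay within −1 and 1. For most markers a 2-fold change in either direction thus lay outside the interval of this fit. The exceptions were *Robo2*, a guidance receptor of podocytes, with an upper bound of 1.07, and *Vwf* with 1.29. These bounds do not carry over to the 6 kidneys with Y-linked reads, described below. There 33 of the 37 fold changes were above 0, against 51.7% of all genes, and that of *Kirrel* was 0.79. In whole kidney RNA, fewer cells of a type and less RNA per cell cannot be told apart.

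Genes of the slit diaphragm and foot process varied between kidneys of the same group more than between genotypes. *Nphs1* was at 9.13, 8.10, 14.4 and 15.1 CPM in controls 1 to 4 and at 12.6, 11.9, 12.4 and 10.7 CPM in mutants 1 to 4. Every mutant lay between the lower and the higher pair of controls. The group means were 11.7 ± 3.57 and 11.9 ± 0.868 CPM (SD, n = 4 each), and the edgeR log2 fold change was 0.02 (SE 0.20, 95% interval −0.43 to 0.48, FDR = 0.990). *Podxl* measured 89.5, 101, 131 and 168 CPM in controls and 131, 118, 103 and 83.8 CPM in mutants, a log2 fold change of −0.17 by edgeR (SE 0.21, interval −0.63 to 0.29, FDR = 0.931). *Synpo* measured 23.1, 27.96, 39.6 and 47.1 CPM in controls and 36.4, 31.7, 35.6 and 24.8 CPM in mutants, a log2 fold change of −0.10 by edgeR (SE 0.22, interval −0.59 to 0.39, FDR = 0.961). For both genes the mutant range fell almost entirely within the control range. *Nes*, the intermediate filament nestin of podocytes, was at 10.7, 12.1, 20.96 and 22.8 CPM in controls and at 20.5, 17.4, 14.7 and 14.3 CPM in mutants. *Kirrel*, which encodes the nephrin partner Neph1, was at 5.48, 6.92, 10.04 and 13.3 CPM in controls and at 13.0, 12.9, 8.91 and 7.79 CPM in mutants. Again controls 1 and 2 were lowest, and all mutants exceeded both of them. The phosphatase gene *Ptpro*, the scaffold gene *Magi2* and *Plce1* had edgeR log2 fold changes of −0.26, −0.20 and 0.10, and that of *Cd2ap* was 0.14. *Clic3*, a chloride channel family member, had the lowest p of the list in edgeR, 0.132 unadjusted, with a log2 fold change of −0.36 (interval −0.86 to 0.13).

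The transcription factors and growth signals of podocytes did not pass the test either. *Wt1* was at 4.97, 4.35, 4.40 and 5.60 CPM in controls and at 5.38, 4.37, 3.78 and 3.27 CPM in mutants. The 2 lowest values were those of mutants 3 and 4, and the groups overlapped. Its edgeR log2 fold change was −0.20 (SE 0.20, interval −0.64 to 0.24, FDR = 0.909). *Tcf21* varied most between mutants, from 12.4 CPM in mutant 3 to 35.3 CPM in mutant 1, with controls at 13.9 to 27.9 CPM. *Dach1*, a developmental transcription regulator, stayed within 9.58 to 12.9 CPM over all kidneys. *Vegfa* was the most even of the 37 markers, at 144, 153, 138 and 154 CPM in controls and 133, 135, 152 and 150 CPM in mutants. Its highest value was 1.16 times its lowest, compared with a median of 1.98 over the podocyte list, and its edgeR log2 fold change was −0.05 (SE 0.08, interval −0.24 to 0.14, FDR = 0.949). The remaining podocyte markers were *Cdkn1c*, *Robo2*, *Thsd7a* and *Pla2r1*, the last 2 of them autoantigens, and their edgeR log2 fold changes were −0.24, 0.29, −0.33 and −0.31.

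Among endothelial genes, receptors for VEGF-A and angiopoietins did not differ beyond the spread between kidneys either. VEGF-A comes in part from podocytes, which belong to the targeted lineage. *Kdr*, which encodes the main signalling VEGF receptor, was at 27.5, 34.5, 30.5 and 45.1 CPM in controls and at 34.1, 37.8, 34.8 and 28.4 CPM in mutants. The edgeR log2 fold change was −0.03 (SE 0.16, interval −0.38 to 0.32, FDR = 0.989). *Flt1*, the decoy VEGF receptor, was at 26.8, 32.8, 36.6 and 42.0 CPM in controls and at 34.3, 34.9, 32.3 and 26.9 CPM in mutants. All 4 mutants lay between the lowest and the highest control for both receptors, and the edgeR log2 fold change of *Flt1* was −0.11 (SE 0.14, interval −0.43 to 0.21, FDR = 0.937). *Tek* was at 23.8, 23.2, 39.0 and 38.0 CPM in controls, 2 tight pairs, and at 31.9, 32.6, 26.6 and 26.4 CPM in mutants, all of which fell in the gap between the pairs. Its edgeR log2 fold change was −0.08 (SE 0.19, interval −0.50 to 0.34, FDR = 0.966). *Ptprb*, a phosphatase that restrains TEK, was at 26.7, 26.7, 39.6 and 44.4 CPM in controls and 36.6, 40.2, 35.2 and 26.9 CPM in mutants. All mutants lay above controls 1 and 2, and mutant 2 lay above control 3. The co-receptor gene *Tie1* had an edgeR log2 fold change of −0.17.

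The junction and surface proteins of endothelium gave the same result. *Pecam1*, a junctional adhesion molecule of all endothelium, was at 39.7, 43.6, 51.5 and 66.5 CPM in controls and at 61.4, 52.3, 44.3 and 43.0 CPM in mutants. Its edgeR log2 fold change was −0.0030 (SE 0.17, interval −0.39 to 0.39, FDR = 0.998), the closest to 0 of the 37. *Cdh5*, the VE-cadherin gene, was at 23.5, 31.8, 35.2 and 37.03 CPM in controls and at 44.6, 33.4, 27.99 and 26.6 CPM in mutants, with an edgeR log2 fold change of 0.05 (SE 0.19, interval −0.37 to 0.48, FDR = 0.979). Mutant 1 was the highest of the 8 kidneys for *Cdh5* and mutants 3 and 4 were within the control range. *Cldn5*, a tight junction gene, had the lowest log2 fold change of the 37, −0.37 by edgeR (interval −0.96 to 0.21, FDR = 0.863), and *Esam* −0.13. *Plvap* ranged from 177 to 292 CPM in controls and from 169 to 227 CPM in mutants, with a log2 fold change of −0.24 by edgeR (interval −0.64 to 0.15). *Emcn* (−0.21), *Eng* (−0.28), *Ehd3*, an endocytic regulator enriched in glomerular endothelium (−0.21), and *Egfl7* (−0.07) had edgeR log2 fold changes below 0 as well. The transcription factor genes *Erg* and *Sox17* stood at −0.15 and −0.16, the nitric oxide synthase gene *Nos3* at −0.08 and the plasminogen activator gene *Plat* at 0.10 on the same scale. *Vwf* rested on 11 to 42 counts per kidney and gave the widest interval, with an edgeR log2 fold change of 0.45 (interval −0.38 to 1.29). In TPM its controls were instead at 1.26, 0.99, 2.06 and 2.15 and its mutants at 1.02, 1.89, 0.89 and 0.63, the opposite direction. TPM divides by the effective length that the quantification assigned, which varied from 807 to 4896 bases between kidneys for this gene. No direction is given for *Vwf*. Effective lengths of *Nphs1*, *Magi2*, *Thsd7a*, *Pla2r1* and *Robo2* also varied by more than 1.5-fold between kidneys.

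**Figure D2:**
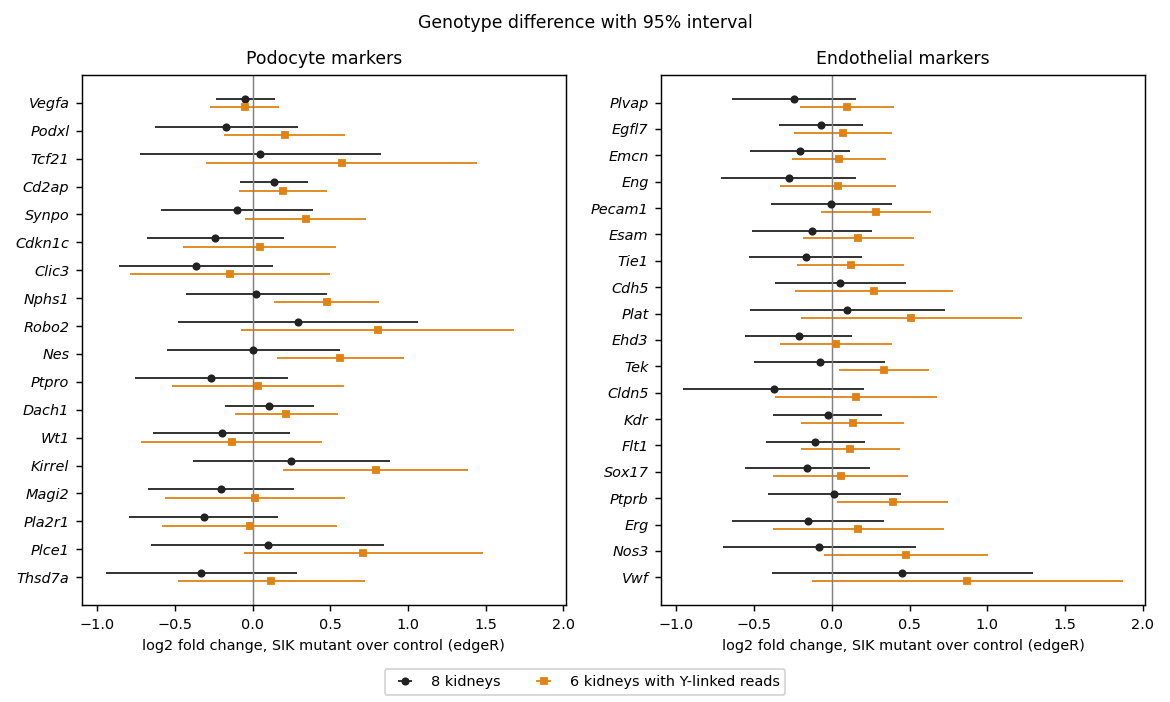
edgeR log2 fold change of SIK mutant over control with its 95% interval for each marker, in black for all 8 kidneys and in orange for the 6 kidneys with Y-linked reads. All black intervals include 0; the orange points lie to the right of the black ones for 36 of the 37 genes, and 5 orange intervals lie above 0.

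The clearest separation of these markers was between the pairs of controls. Both controls with *Xist* lay above both controls with Y-linked reads in CPM for 15 of 18 podocyte and 17 of 19 endothelial markers, 32 of 37 or 86.5%, against 30.0% of all genes. For 0 of the 37 did both lie below, against 29.7% of all genes. In TPM the pairs were separated in the same direction for 37 of 37, against 50.9% of all genes. The ratio of the pair means in CPM had a median of 1.51 over podocyte markers and 1.44 over endothelial markers, beside 1.01 over all genes. Among podocyte markers it reached 2.04 for *Plce1*, 1.92 for *Nes*, 1.88 for *Kirrel* and 1.71 for *Nphs1*, and among endothelial markers 1.92 for *Nos3*, 1.86 for *Cldn5* and 1.64 for *Tek*. The markers whose CPM did not separate the pairs were *Vegfa*, with a ratio of 0.982, *Wt1* (1.07), *Dach1* (1.14), *Kdr* (1.22) and *Vwf* (1.65). Each pair holds 2 mice, so these are descriptions with no test, and what set the pairs apart was not tested.

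**Figure D3:**
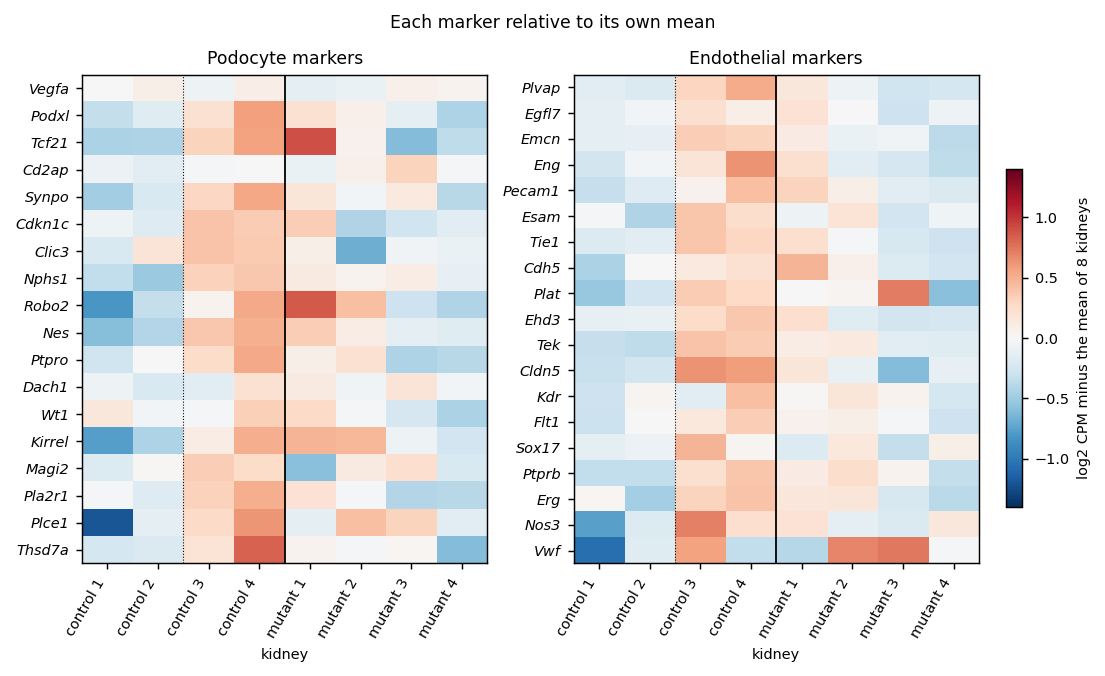
log2 CPM of each marker in each kidney minus its own mean over the 8 kidneys, podocyte markers on the left and endothelial markers on the right. The solid line divides controls from mutants and the dotted line divides the controls with Y-linked reads (1 and 2) from those with *Xist* (3 and 4), whose columns are red for most genes while those of controls 1 and 2 are blue.

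Mutant kidneys were then set against the pairs of controls. The mutant mean CPM lay between the means of the control pairs for 12 of 18 podocyte and 18 of 19 endothelial markers, 81.1% of the 37, against 51.3% of all genes. All 4 mutants were below both controls with *Xist* for 20 markers (54.1%), against 14.0% of all genes, and above both controls with Y-linked reads for 6 (16.2%), against 10.1%. Those 6 were *Nphs1*, *Nes*, *Kirrel* and *Dach1* on the podocyte list and *Tek* and *Ptprb* on the endothelial list. Such shares depend on how far apart the control pairs lie, which was farther for the markers than for all genes. The shares of all genes are not matched for this, so no conclusion about the mutants is drawn from them. Because the mutants themselves carried Y-linked reads, the comparison within the 6 such kidneys sets 4 mutants against 2 controls. There the edgeR log2 fold change was above 0 for 14 of 18 podocyte and 19 of 19 endothelial markers, 89.2% of the 37, against 51.7% of all genes. The exceptions were *Wt1*, *Clic3*, *Vegfa* and *Pla2r1*. The endothelial count includes *Vwf*, for which no direction is given above. The median log2 fold change was 0.20 for podocyte and 0.16 for endothelial markers, beside 0.01 for all genes. At an unadjusted p under 0.05, 5 markers (13.5%) were higher in mutants, against 6.4% of all genes, and 0 were lower, against 4.74%. They were *Nphs1*, with a log2 fold change of 0.48 (SE 0.15, interval 0.14 to 0.82, edgeR FDR = 0.324), *Nes* with 0.56 (SE 0.18, interval 0.15 to 0.97, edgeR FDR = 0.338), *Kirrel* with 0.79 (SE 0.26, interval 0.20 to 1.39, edgeR FDR = 0.347), *Tek* with 0.33 (SE 0.13, interval 0.05 to 0.62, edgeR FDR = 0.392) and *Ptprb* with 0.39 (SE 0.16, interval 0.03 to 0.75, edgeR FDR = 0.409). None of the 37 reached an FDR of 0.05, which 0.143% of all genes did. In the same 6 kidneys 7 of 7 adipocyte markers were higher in mutants at an unadjusted edgeR p under 0.05, 5 of them at an FDR under 0.05, and 3 of 8 proximal tubule markers were lower and 2 of 5 immune cell markers higher at an unadjusted p under 0.05. Their part in the marker values was not tested. The direction thus depended on which controls entered: over 8 kidneys 12 markers were above 0, and over 6 kidneys 33 were.

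The summed levels of the podocyte list and the endothelial list varied in parallel from kidney to kidney. Without *Vegfa*, the podocyte list was led by *Podxl*, *Tcf21* and *Cd2ap*, at means of 23.8, 20.4 and 19.2 TPM. Of these *Cd2ap* is expressed outside podocytes as well, so the sum does not measure podocytes alone. Summed over the podocyte list without *Vegfa*, the level was 81.5, 89.8, 136 and 155 TPM in controls 1 to 4 and 148, 119, 112 and 88.2 TPM in mutants 1 to 4. Summed over the endothelial list, it was 282, 307, 473 and 517 TPM in controls and 447, 397, 352 and 302 TPM in mutants. Both sums placed the kidneys in nearly the same order, with controls 4 and 3 and mutant 1 at the top and controls 1 and 2 and mutant 4 at the bottom. Their ratio was 0.286 to 0.299 in controls and 0.292 to 0.332 in mutants, a far narrower range than that of either sum. With *Vegfa* included, the ratio was 0.548, 0.569, 0.487 and 0.477 in controls 1 to 4, which separated the control pairs. It was 0.502 to 0.580 in mutants. The group means of the endothelial sum were 395 ± 118 TPM in controls and 374 ± 62.0 TPM in mutants (SD, n = 4 each), and those of the whole podocyte list were 202 ± 44.0 and 201 ± 22.1 TPM. TPM values of a kidney share a fixed total, of which *Kap*, the androgen-regulated transcript of the proximal tubule, alone took 55301 and 46755 TPM in controls 1 and 2, 19982 and 20793 TPM in controls 3 and 4, and 28918 to 42726 TPM in mutants. Over all genes, the ratio of the mean of controls 3 and 4 to that of controls 1 and 2 had a median of 1.17 in TPM and of 1.01 in CPM with TMM factors, so CPM values were used for the comparisons within a gene.

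**Figure D4:**
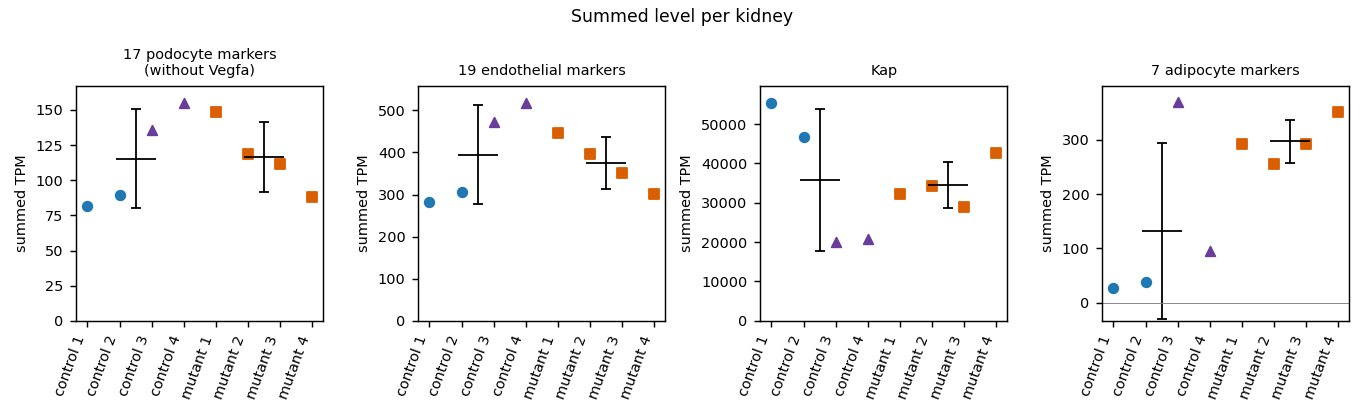
Summed TPM per kidney of the podocyte markers without *Vegfa*, of the endothelial markers, of *Kap* alone and of the adipocyte markers, with the mean and SD of each group of 4 in black. Podocyte and endothelial sums are lowest in control 1, followed by mutant 4 and control 2, and highest in control 4, *Kap* runs the other way, and adipocyte transcripts are lowest in controls 1 and 2.

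Markers of other cells in the kidney also varied between these libraries. For the counts below, 49.2% of all genes tested had a log2 fold change above 0 over the 8 kidneys. At an unadjusted edgeR p under 0.05, 2.76% of all genes were higher in mutants and 3.59% lower. The 7 adipocyte markers summed to 255 to 351 TPM in mutants and to 26.8, 37.6, 370 and 94.98 TPM in controls, and 6 of the 6 tested genes had a log2 fold change above 0, 1 of them, *Fabp4*, at an unadjusted edgeR p under 0.05. In control 1 all of these genes other than *Fabp4* were listed at 0. Red blood cell transcripts summed to 2060 to 3135 TPM in controls and reached 8937 TPM in mutant 1 and 7018 TPM in mutant 4. Mutants 2 and 3 were within the control range, at 2226 and 2606 TPM. Of these genes 5 of 5 were above 0 in log2 fold change, 2 at an unadjusted edgeR p under 0.05. Immune cell markers summed to 35.4 to 53.4 TPM in controls and 42.7 to 72.8 TPM in mutants, with 5 of 5 above 0 in log2 fold change and 2, *Lyz2* and *Adgre1*, at an unadjusted edgeR p under 0.05. Markers of mesangial cells, pericytes and smooth muscle summed to 52.7 to 147 TPM in controls and 75.8 to 174 TPM in mutants. Proximal tubule markers, of which *Kap* is the largest, summed to 23433 to 59212 TPM in controls and 32780 to 46335 TPM in mutants, and 7 of 8 had a log2 fold change below 0. Of these *Slc5a2*, the glucose transporter SGLT2, was lower in mutants without overlap (log2 fold change −0.67, SE 0.10, edgeR FDR = 0.0697, DESeq2 FDR = 9.4e-10). The 4 genes listed as parietal epithelial markers, *Cldn1*, *Pax2*, *Pax8* and *Ncam1*, summed to 56.1 to 68.7 TPM in controls and 63.6 to 87.8 TPM in mutants. Of these, 0 of 4 passed an unadjusted edgeR p under 0.05. Which cells of the whole kidney gave these reads was not tested. The part of these cells in the marker values was not tested.

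Other genes of the filtration barrier differed in both directions at an unadjusted p over the 8 kidneys. Of 24 slit diaphragm, foot process and podocyte regulator genes outside the 37 markers, 22 were tested, and 3 were higher (13.6%) and 2 lower (9.09%) in mutants at an unadjusted edgeR p under 0.05, against 2.76% and 3.59% of all genes. *Lmx1b*, a transcription factor of podocytes named after its value was seen, was lower, at 1.42, 1.58, 2.82 and 2.45 CPM in controls and at 1.32, 1.16, 1.36 and 0.77 CPM in mutants (log2 fold change −0.84, SE 0.31, edgeR FDR = 0.715). These values rest on few counts, as 3 counts correspond to 0.263 to 0.304 CPM. Controls 1 and 2 lay closer to the mutants than controls 3 and 4 did. *Fat1*, a giant protocadherin of the slit diaphragm that tubules express too, had a log2 fold change of 0.36 (SE 0.12, edgeR FDR = 0.707), and *Dag1*, the dystroglycan that anchors cells to matrix, 0.29 (SE 0.10, edgeR FDR = 0.713). Of 8 genes of the glomerular basement membrane, 8 had a log2 fold change above 0 and 2 were higher at an unadjusted edgeR p under 0.05, against 2.76% of all genes. *Col4a5*, a chain of the type IV collagen network, was at 29.4, 27.6, 30.0 and 26.5 CPM in controls and at 35.4, 39.5, 44.1 and 37.8 CPM in mutants. The groups did not overlap, the control pairs were alike, and the log2 fold change was 0.47 (SE 0.09, interval 0.26 to 0.67, edgeR FDR = 0.313, DESeq2 FDR = 0.0202). *Lama5*, the laminin chain partner in the same membrane, was at 57.5 to 68.4 CPM in controls and 68.5 to 90.7 CPM in mutants (log2 fold change 0.31, SE 0.11, edgeR FDR = 0.703). Both are also made by tubule epithelium. In the 6 kidneys with Y-linked reads, 6 of the 22 slit diaphragm, foot process and regulator genes were higher and 1 lower at an unadjusted edgeR p under 0.05. Of the basement membrane genes, 4 of 8 were higher and 0 lower. Of all genes, 6.4% were higher and 4.74% lower there. No gene in these sets reached an edgeR FDR of 0.05 over the 8 or the 6 kidneys.

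The wider endothelial programme gave no call over the 8 kidneys at an unadjusted edgeR p under 0.05, which 6.36% of all genes passed. Of 12 genes of the VEGF and angiopoietin pathway outside the markers, 11 were tested and 0 passed an unadjusted edgeR p under 0.05, with a median log2 fold change of −0.01. Of 13 Notch and endothelial transcription factor genes 12 were tested and 0 passed, with a median of −0.16. Of 13 other pan-endothelial genes 0 passed, with a median of 0.04, and of 10 markers of arterial, venous, lymphatic and peritubular endothelium 8 were tested and 0 passed, with a median of −0.13. With the 6 kidneys that had Y-linked reads, the medians of these 4 sets were 0.26, 0.13, 0.44 and 0.13, all above 0, as for the markers. In these 6 kidneys 1 of 11, 0 of 13, 2 of 13 and 1 of 8 genes were higher in mutants at an unadjusted edgeR p under 0.05. Of all genes 6.4% were. In each set 0 were lower, against 4.74% of all genes.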

How the data were processed

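Whole kidney RNA from 8 mice was sequenced on a BGISEQ500 instrument. Per the submitters' processing notes, the authors used FastQC, STAR 2.7.2b, RSEM 1.3.0 and DESeq2 with mm10. The annotation and the use of strand are not given in the sources used here, so reads of *Nphs1*, *Egfl7*, *Eng*, *Nos3*, *Cdkn1c*, *Pla2r1* and *Sox17*, whose exons overlap genes on the opposite strand, may include those of their partners. Replicates were not pooled. The deposited expected counts, which RSEM estimated per gene, carry no normalisation. The deposited TPM values were scaled by the authors to effective length and library total. Effective lengths and posterior standard deviations, other values that the authors deposited, served for checks only. The posterior SD was above 0 for 4 of the 37 markers, at most 2.28% of the count.

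Expected counts were rounded and tested in R 4.3.3 with edgeR 4.0.16 (glmQLFit and glmQLFTest) after TMM scaling. Of these, 14326 genes passed filterByExpr, and FDR values were computed over them by the Benjamini-Hochberg procedure. No block or covariate was used, since the study states no RNA-Seq model in the sources used here. Group values are means ± SD, and intervals are 95%. DESeq2 1.42.0 and limma 3.58.1 were alternatives, and the scripts were tested on simulated data. Of the 55401 genes in each file, 54349 matched GENCODE M21 with their version. Floors on counts cover counting error only, and the libraries carry no molecular identifiers. The 95% intervals of the log2 fold changes come from the edgeR fit and include the spread between kidneys. Nothing says that the kidneys of a group came from separate litters, so p-values measure the spread between these mice. No 2 kidneys were duplicates (chi-square per degree of freedom 9.06 to 49.5 over 12 pairs within groups).

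The members, the gene lists and the tests were chosen with earlier results of these data known. All 37 markers were accounted for. Those given with full statistics were the 10 defining markers (*Nphs1*, *Podxl*, *Synpo*, *Wt1*, *Vegfa*, *Pecam1*, *Cdh5*, *Kdr*, *Flt1*, *Tek*) and any with an edgeR p under 0.05 or groups without overlap, of which there were 0. *Nes*, *Kirrel*, *Ptprb*, *Robo2* and *Vwf* were detailed after their values were seen. From other lists, up to 3 genes of lowest p were named, and 1 of them is not reported here. Alternatives were RLE factors, a test without the filter or with genes averaging 50 counts or more, limma-trend on log2 TPM with a pseudocount of 1 or 0.1, limma-voom, a replicate block, a covariate for Y-linked transcripts, the 6 kidneys with Y-linked reads, and each kidney left out in turn. An offset from effective lengths and DESeq2 on the 6 kidneys were added after seeing the data. The numbers in the titles were not used to pair the kidneys in the main test, and the study's supplement numbers the controls differently. Promoters were taken from a RefSeq table (GRCm38.p6).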

Additional observations from a re-analysis of the deposited data

Results flagged for a closer look

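Of 78 sets of 4 kidneys examined (37 markers and 2 sums in each group), 2 had a kidney far from the other 3, while chance would give about 1 in 20, or 3.9. *Thsd7a* was at 2.69 CPM in mutant 4 and at 4.01 to 4.24 CPM in the other mutants, a gap that made up 0.855 of the range of the group. *Ehd3* was at 27.98 CPM in mutant 1 and at 19.95 to 21.2 CPM in the other mutants, a gap of 0.841 of the range. Neither gene passed the test between genotypes.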

How the results depend on the processing

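In every fit listed in the methods, 0 of the markers tested had an FDR under 0.05 by the tool of that fit, the lowest FDR being 0.244. Counts at an unadjusted p and the sign of small differences moved with the kidneys used. Podocyte and endothelial markers at p under 0.05 numbered 3 and 2 with the Y-linked covariate and with the 6 kidneys and 4 and 1 with DESeq2 on the 6 kidneys, all higher in mutants. With a kidney left out they numbered 0 to 1 each, the 1 in each list being *Cdkn1c* and *Ehd3*, lower in mutants without mutant 1. Over all genes the FDR calls were 9 without a filter, 15 with the covariate, 21 with the 6 kidneys, 71 with DESeq2, 185 with DESeq2 on the 6 kidneys, 2 with limma-voom, 4 and 5 with limma-trend at pseudocounts of 1 and 0.1, and 0 to 1 with a kidney left out. The endothelial median log2 fold change was 0.16 with the covariate, 0.16 with the 6 kidneys and 0.15 with DESeq2 on them, and the podocyte median ranged from −0.17 to 0.20. The mutant minus control difference of the summed TPM, −0.535 and −20.5 for podocyte and endothelial markers, was 36.5 and 80.0 with the 6 kidneys, and −16.3 to 14.4 and −58.2 to 20.4 with a kidney left out. The shift with the 6 kidneys was smaller in CPM. There the mutant mean of the podocyte and endothelial sums was 1.22 and 1.27 times the control mean in TPM, and 1.11 and 1.09 times in CPM.

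With the covariate, the 6 kidneys and DESeq2 on the 6 kidneys, in that order, log2 fold changes that turned positive were 0.20, 0.21 and 0.20 for *Podxl*, 0.34, 0.34 and 0.34 for *Synpo*, 0.27, 0.28 and 0.28 for *Pecam1*, 0.12, 0.13 and 0.13 for *Kdr*, 0.11, 0.12 and 0.11 for *Flt1*, and 0.33, 0.33 and 0.33 for *Tek*. With limma-trend at pseudocounts of 1 and 0.1 they were 0.11 and 0.12 for *Pecam1*, 0.086 and 0.10 for *Kdr*, 0.0079 and 0.012 for *Flt1*, and 0.062 and 0.076 for *Tek*, and those of *Vwf* were −0.32 and −0.54. *Pecam1* was also at 0.0032 with RLE factors, 0.00036 without a filter, 0.0055 with DESeq2 and 0.010 with limma-voom. With the effective-length offset *Nphs1* was at −0.076 and *Vwf* at −0.66. With a kidney left out, the ranges were −0.12 to 0.17 for *Nphs1*, −0.29 to 0.023 for *Podxl*, −0.25 to 0.085 for *Synpo*, −0.11 to 0.16 for *Pecam1*, −0.12 to 0.15 for *Cdh5*, −0.12 to 0.13 for *Kdr*, −0.21 to 0.0012 for *Flt1*, −0.19 to 0.051 for *Tek*, −0.16 to 0.19 for *Nes* and −0.088 to 0.16 for *Ptprb*. *Podxl*, *Synpo*, *Pecam1*, *Kdr*, *Flt1* and *Tek* turned positive without control 4, *Synpo* and *Kdr* also without mutant 4, *Tek* without control 3, and *Pecam1* without control 3, mutant 3 or mutant 4. *Nphs1*, *Nes* and *Ptprb* turned negative without control 1, control 2 or mutant 1, *Nes* and *Ptprb* also without mutant 2, and *Cdh5* without control 1 or mutant 1. The cause of these reversals was not tested.

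Whether the replicate number pairs the kidneys could not be settled. Deviations of same-numbered kidneys from their group means correlated at −0.156, 0.0531, 0.0427 and −0.288. For controls 2 and 3 the same-numbered mutant had the highest correlation of the mutants. The control deviations also hold the split between the control pairs, so this check cannot exclude pairing. In the fit with the replicate block, 0 genes had an FDR under 0.05 and *Pecam1* turned to 0.010. With 4 kidneys a group and control pairs that differed by a median of 1.51-fold and 1.44-fold in these lists, smaller genotype differences than the intervals above could not be resolved.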
